A study of Mus musculus with 4 samples.

Results

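Mouse genes that still carry the name of a RIKEN cDNA clone instead of a functional name were followed through spermatogenesis. The genes described here are the rows of the count tables whose symbol starts with 1700 and ends with RIK and whose counts, summed over every barcode of the 4 libraries, reach 400. Of 504 rows with such a symbol, among 25824 gene symbols in all, 215 met this rule and are called the members. The members 1700010J16RIK and 1700126A01RIK lay just inside the limit with 418 and 407 counts, and 1700010H22RIK and 1700084D21RIK lay just outside it with 398 counts each. The level of a member therefore entered the rule. So did, in part, its difference between genotypes, since the WT libraries held 73.1% of all counts and a gene that was higher in WT reached the limit more easily (WT held 77.4% of the members' counts).

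The samples were cell suspensions from the testes of 2 wild-type (WT) mice, labelled Ctcf wt/wt, and 2 Ctcf-cKO mice, labelled Stra8-iCre-Ctcf f/Δ, all of background strain C56BL/6J as the labels spell it and 15 weeks old. In Ctcf-cKO mice a Cre recombinase driven by the Stra8 promoter, which is active in male germ cells, removes the floxed Ctcf allele next to an allele that is already deleted. The study's methods allow WT littermates with floxed alleles and no deletion, and state that filtrates of 2 tubes were pooled for Ctcf-cKO. Single cells were captured in droplets with barcoded primers (ddSEQ), and the 3′ ends of their RNA were sequenced and counted per gene and barcode. The comparison asks in which germ cells these genes are expressed and whether loss of CTCF, a zinc finger protein that binds DNA and shapes chromatin loops, changes their level.

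Clones whose names start with 1700 were sequenced from an adult mouse testis cDNA library, so many of the genes that keep such a name are transcribed mainly in male germ cells. Male germ cells pass through meiosis as spermatocytes, become haploid round spermatids that build the acrosome and the flagellum, and then elongate while protamines replace histones. The germ line transcribes an unusually wide part of the genome at these stages, including many long noncoding RNAs, and elongating spermatids store transcripts after transcription has stopped.

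The 4 libraries differed in depth and in composition. They held 6701235 and 4859455 counts in WT replicates 1 and 2 and 2652665 and 1593546 counts in Ctcf-cKO replicates 1 and 3. Barcodes with fewer than 200 genes, which hold RNA set free from broken cells, took 1.57% and 12.1% of a WT library and 40.8% and 46.9% of a Ctcf-cKO library. This limit follows depth, so the shares do not measure how much RNA was free: the plateau of barcodes without a cell lay at 1101 and 541 counts in WT and 283 and 200 counts in Ctcf-cKO, and 4227 of the 5603 barcodes of WT replicate 1 had 200 or more genes and passed the other limits on genes and mitochondrial counts, although 134 were taken as cells. CTCF itself had 110 and 49 counts in the WT libraries and 4 and 7 counts in the Ctcf-cKO libraries, or 16.4 and 10.1 against 1.51 and 4.39 CPM (counts scaled to the sum of their class or library). Within round spermatid-like cells Ctcf-cKO replicate 3 went against this, with 4 CTCF counts or 35.2 CPM beside 9.46 and 3.28 CPM in WT and none in Ctcf-cKO replicate 1. Cells numbered 134 and 912 in WT and 314 and 293 in Ctcf-cKO, with a median of 8931, 918, 3115 and 1977 counts per cell, and 1 cell barcode was shared by 2 libraries. WT replicate 2 stands apart, since its limit on counts admitted many shallow barcodes, of which 644 fell into clusters without a name. Markers of the testis were present throughout: all 18 spermatocyte, 18 round spermatid and 17 elongating spermatid markers had counts in every library.

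The 3 classes of germ cells were formed from clusters. Spermatocyte-like cells (9 and 32 WT cells, 12 and 12 Ctcf-cKO cells) had 16 of 18 spermatocyte markers higher than in the other cells. Round spermatid-like cells (28 and 179 WT, 39 and 8 Ctcf-cKO) came from 2 clusters with 11 and 17 of 18 round spermatid markers. The first also had 8 of 17 elongating spermatid markers higher and supplied 144 of the 179 cells of WT replicate 2 but 12 of the 28 of WT replicate 1, and elongating spermatid markers summed to 31800 and 121600 CPM in WT and 72270 and 28410 CPM in Ctcf-cKO in this class. Elongating spermatid-like cells (36 and 40 WT, 31 and 19 Ctcf-cKO) had 17 of 17 elongating spermatid markers and were led by TNP2 and TNP1, the transition proteins. Rows with a 1700 symbol took no part in choosing the genes for clustering. Even so, values in cells carry free RNA: the summed elongating spermatid markers reached 208400 to 259600 CPM in elongating spermatid-like cells and still 90770 to 152300 CPM in the somatic clusters (Leydig, peritubular or interstitial, and macrophage), which should lack them. The level in the somatic clusters is therefore given as background for the members described by stage. These clusters held 13 and 17 WT cells with 101691 and 63113 counts, and 148 and 179 Ctcf-cKO cells with 688139 and 464366 counts. Their makeup differed: WT replicate 1 had 8 Leydig, 5 peritubular or interstitial and 0 macrophage cells, and WT replicate 2 had 3, 6 and 8.

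Of the 215 members, 210 were found in the GENCODE M21 annotation of GRCm38. It calls 89 of them protein-coding, 55 long intergenic noncoding RNAs and 39 antisense RNAs, and 32 have a single exon. The median spliced length was 938 bases, with a range from 243 to 9559 bases. Members overlap a gene on the opposite strand in 95 cases and one on the same strand in 21, and reads from such pairs may not be told apart because the use of strand in counting is not stated in the sources used here. By RefSeq, 10 members matched through a synonym, and those with an established name include H2bl1 (1700024P04RIK), a histone H2B variant of spermatids, Dnajb8 (1700031F10RIK), a J-domain co-chaperone, the membrane-spanning genes Ms4a19 and Ms4a20 (1700025F22RIK and 1700017D01RIK) and Acsbg3 (1700061G19RIK), of the bubblegum family of acyl-CoA synthetases. GENCODE annotates 1700031F10RIK as antisense, so this row may not be the coding gene Dnajb8.

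The promoters of the first-ranked member of each stage and of the member with the largest rise in Ctcf-cKO are shown to place these loci, from 100 bases before the gene's start to 50 bases from it on, as RefSeq gives them on GRCm38.p6. The single capital marks the start, and the 6 capitals in the last sequence mark the letters of TATAAA read on the other strand.
1700029P11RIK, spermatocyte peak, chr15:81980440-81980589, + strand: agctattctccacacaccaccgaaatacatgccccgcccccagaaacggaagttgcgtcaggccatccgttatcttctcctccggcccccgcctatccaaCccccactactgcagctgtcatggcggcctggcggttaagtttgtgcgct
1700029J07RIK, round spermatid peak, chr8:45975203-45975352, - strand: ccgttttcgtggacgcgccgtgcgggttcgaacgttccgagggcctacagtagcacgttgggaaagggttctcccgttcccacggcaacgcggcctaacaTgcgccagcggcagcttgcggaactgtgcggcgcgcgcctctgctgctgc
1700012D16RIK, elongating spermatid peak, chr3:153298600-153298749, - strand: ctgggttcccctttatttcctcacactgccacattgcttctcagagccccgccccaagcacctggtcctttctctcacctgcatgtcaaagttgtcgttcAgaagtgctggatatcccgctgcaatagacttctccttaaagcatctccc
1700018G05RIK, largest rise, chrX:102928272-102928421, + strand: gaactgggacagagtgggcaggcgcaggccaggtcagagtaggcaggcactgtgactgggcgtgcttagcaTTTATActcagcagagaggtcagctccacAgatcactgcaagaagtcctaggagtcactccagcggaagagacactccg

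Promoter windows of 300 bases (250 before the start and 50 from it on) were found for 159 members, 181 windows in all, and were searched on both strands for 5 sets of letters. GTTGCCATG, part of the X-box bound by RFX factors, which act in ciliated and haploid germ cells, stood in 8 windows (4.42%) against 0.773% of 32851 promoters of the same length. TATAAA was found in 13.8% of the members' windows and 13.6% of all, TGACGT in 6.63% and 7.51%, TGACGTCA, the cAMP response element, which contains TGACGT, in 1.10% and 1.79%, and the core letters of the CTCF motif in 2.21% and 3.43%. These matches are descriptions of letters and were not tested. The members with the X-box letters are shown with the match in capitals, as printed or as its reverse complement, and 1700030C14RIK holds a second match that is not shown.
1700001K19RIK, chr12:110682668-110682697, - strand: agtcacactggGTTGCCATGgagatacctg
1700010I14RIK, chr17:8988302-8988331, + strand: tttactgtttcCATGGCAACtgcagcttcc
1700030C14RIK, chr2:152654350-152654379, - strand: gtggtggttacCATGGCAACtatctctgca
1700034J05RIK, chr6:146954435-146954464, - strand: ttggttcctttGTTGCCATGgtaaccaaca
1700064M15RIK, chr12:99627962-99627991, - strand: ggcaggccatgGTTGCCATGgcagcgcagc
1700099I09RIK, chr13:102760241-102760270, + strand: atgcaaaatgcCATGGCAACcacaaagatg
1700109H08RIK, chr5:3571637-3571666, + strand: atggctgggaaGTTGCCATGgccacattct
1700125H20RIK, chr11:85171028-85171057, + strand: ctgtgttggcaGTTGCCATGgttttgctcc

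The stage of each member was read as the class with the highest mean CPM over the 4 mice. By this measure 41 members (19.1%) peaked in spermatocyte-like cells, 93 (43.3%) in round spermatid-like cells and 81 (37.7%) in elongating spermatid-like cells. These stages are read among the 3 named classes only: over all clusters, by the mean over mice with at least 5 cells, 107 members were highest in a cluster of these classes, 101 in an unnamed cluster and 7 in a somatic one. Of the 101, 47 were highest in a cluster of 45 cells, 33 of them from WT replicate 2, in which no marker list was higher. There the mean is over the 2 WT mice alone, with 7 and 33 cells, since the Ctcf-cKO mice had 1 and 4 cells. Another 24 were highest in the cluster with Sertoli cell markers described below. Among all 5610 rows with a total of at least 400 counts, the shares were 47.0%, 34.3% and 18.7%, so members lay more often on the haploid side than the background did. Clones named after other adult testis cDNA libraries, of which 180 rows reached 400 counts, had 18.3%, 56.7% and 25%. These shares are descriptions, since the classes were made from the same cells. In 63 members, every mouse was higher in the peak class than any mouse in the other classes, which was 29.3% of members beside 21.7% of all 5610 rows. That number held 6 members of the spermatocyte peak, 29 of the round spermatid peak and 28 of the elongating spermatid peak.

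**Figure D1:**
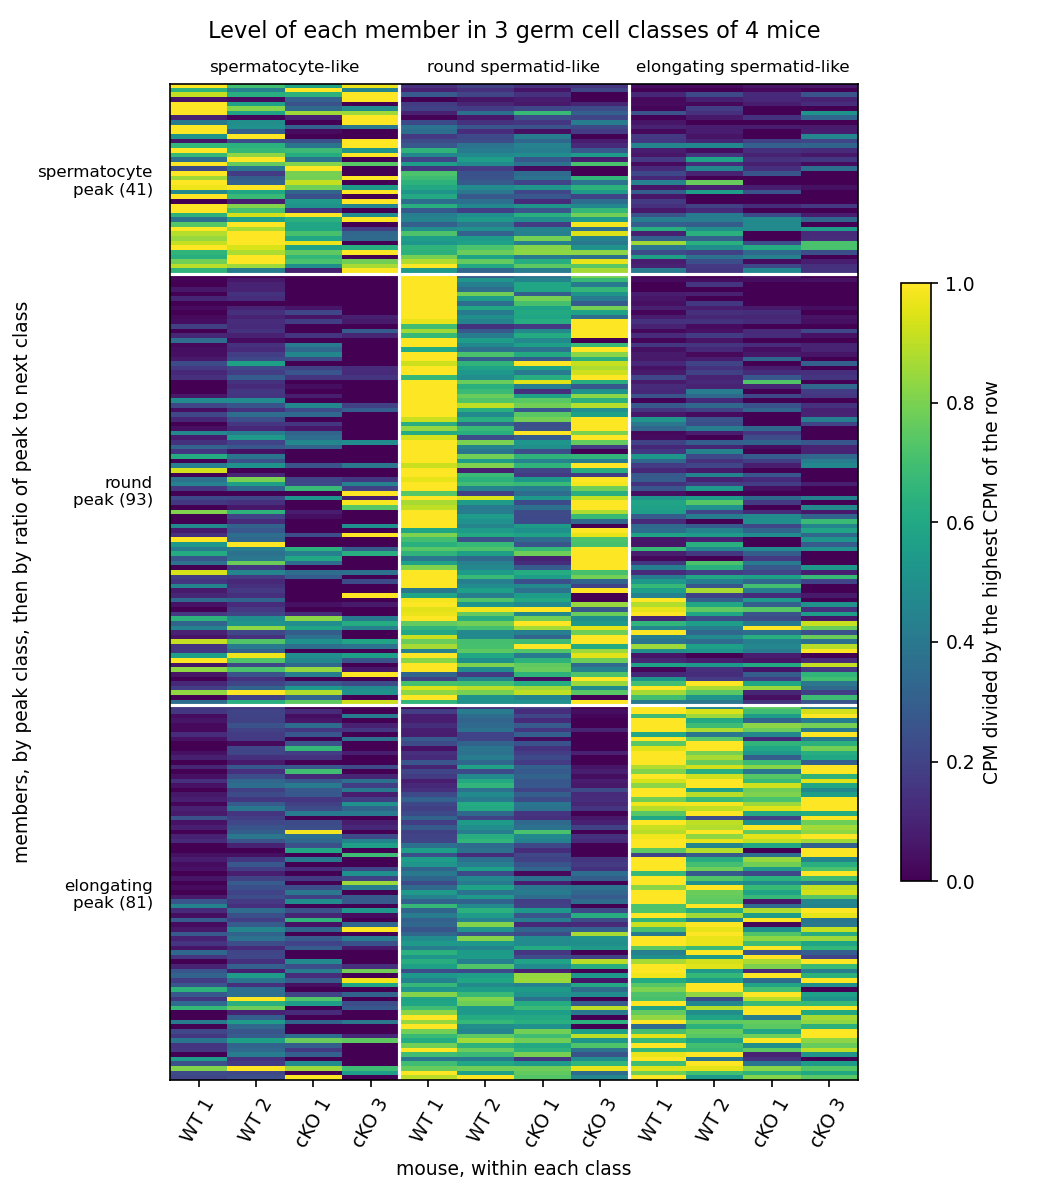
Level of each of the 215 members (rows) in the 3 germ cell classes of the 4 mice (columns), as CPM divided by the highest CPM of that row, with rows ordered by peak class and then by the ratio of the peak class to the next class. The 3 blocks on the diagonal hold the 41, 93 and 81 members of the 3 peak classes.

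Stage calls differed in firmness. The same class was highest in all 4 mice for 96 members and in at least 3 mice for 166, while for 37 members the peak exceeded the next class by less than 1.2 times. A ratio above 5 was reached by 15 members of the round spermatid peak, 2 of the spermatocyte peak and 1 of the elongating spermatid peak. When the class was read separately in each genotype, 157 members (73.0%) had the same peak in WT and in Ctcf-cKO, beside 66.4% of all rows of at least 400 counts. Of 45 members with a spermatocyte peak in WT, 19 peaked in round spermatid-like cells in Ctcf-cKO, where the spermatocyte-like class is the shallowest with 95005 and 40924 counts.

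The largest ratios of peak to next class were found in the round spermatid peak. 1700029J07RIK, a protein-coding gene on chromosome 8, had 213 and 64.0 CPM in WT and 83.6 and 167 CPM in Ctcf-cKO round spermatid-like cells, with no more than 10.3 CPM in any mouse in the other germ cell classes, so that the ratio to the next class was 34.1, and 15.1 to 78.7 CPM in the somatic clusters. An unnamed cluster held 489.8 CPM of it in WT replicate 1, in 7 cells with 22457 counts, and none in WT replicate 2, so its restriction holds among the 3 named classes only. 1700001P01RIK, protein-coding on chromosome 11 and the leading gene of the deeper round spermatid cluster, had 578 and 302 CPM in WT and 260 and 388 CPM in Ctcf-cKO. Its highest value in spermatocyte-like or elongating spermatid-like cells was 39.3 CPM, and the somatic clusters held 0 to 55.2 CPM. The long intergenic noncoding RNAs 1700017J07RIK and 1700041C23RIK reached ratios of 16.4 and 16.3, with 44.1 to 106 and 37.7 to 106 CPM in round spermatid-like cells and 0 to 7.27 and 0 to 17.2 CPM in the somatic clusters. The groups of classes did not overlap in these 4 members, which were ranked by this ratio. Of the 93 members of this peak, 43 were higher in the deeper than in the shallower of the 2 round spermatid clusters in each of the 3 mice with at least 5 cells in both, and 0 were lower in each.

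Members of the elongating spermatid peak were the most abundant. They made up 11 of the 12 members with the largest totals, which together held 27.7% of the 610788 counts of all members. 1700003F12RIK, with 19020 counts the most abundant, is protein-coding, lies on chromosome 2 and overlaps Necab3 on the opposite strand. It had 3190 and 2321 CPM in WT and 2035 and 2189 CPM in Ctcf-cKO elongating spermatid-like cells, against 943 to 1485 CPM in round spermatid-like cells and 919 to 1230 CPM in somatic clusters. Its somatic level lay in the range of its round spermatid level, and only the elongating spermatid value lay above the somatic level in every mouse.

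1700027A15RIK is annotated as an antisense RNA over Tnp1, which encodes transition protein 1, on chromosome 1 at 72984844 to 73025507. Its level in elongating spermatid-like cells was 1860 and 1982 CPM in WT and 1333 and 1887 CPM in Ctcf-cKO, 3.2 times that in the next class, and 728 to 1838 CPM in somatic clusters. With the use of strand in counting not stated, reads of Tnp1 may have entered this row. The histone variant H2bl1 (1700024P04RIK) had a mean of 934 CPM in elongating and 417 CPM in round spermatid-like cells, with the same peak in 4 mice and 263 to 602 CPM in somatic clusters. The row 1700031F10RIK, matched to Dnajb8 by synonym, had a mean of 214 CPM in elongating and 72.0 CPM in round spermatid-like cells. It is annotated as antisense in GENCODE, so these values may not be the level of Dnajb8. In WT replicate 2 its level of 173 CPM in elongating spermatid-like cells did not exceed the somatic 174 CPM, which rests on 17 cells with 63113 counts. The other mice had 100 to 110 CPM in somatic clusters. Over all clusters 1700031F10RIK was highest in the unnamed cluster with Sertoli cell markers.

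The steepest peaks of this class were found in less abundant members. 1700012D16RIK, a noncoding RNA within an intron of St6galnac3, had 166 and 74.9 CPM in WT and 124 and 70.9 CPM in Ctcf-cKO elongating spermatid-like cells, 7.7 times the next class. Its somatic level was 98.3 and 15.8 CPM in WT and 43.6 and 75.4 CPM in Ctcf-cKO, so that in Ctcf-cKO replicate 3 the peak did not exceed this background. 1700016P04RIK, a long intergenic noncoding RNA on chromosome 6, had 701 and 662 CPM in WT and 486 and 656 CPM in Ctcf-cKO, 4.6 times the next class, and 243 to 444 CPM in somatic clusters. 1700042G07RIK, protein-coding on chromosome 4, had a ratio of 4.5, and 1700029B22RIK, antisense to Fgfr2, had 4.4, with 374 to 631 and 73.2 to 158 CPM in somatic clusters. Over all clusters 1700029B22RIK was highest in the unnamed cluster with Sertoli cell markers. Over the whole class, the median somatic level was 49.5% of the peak level, against 30.4% for the round spermatid peak and 25.2% for the spermatocyte peak. In 1 member of this class and 2 of the round spermatid peak the somatic mean was higher than the peak.

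Members of the spermatocyte peak had the smallest median ratio of peak to next class, 1.48 against 1.95 and 1.99 for the round and elongating spermatid peaks. 1700029P11RIK, a protein-coding gene of a single exon on chromosome 15, had 403 and 281 CPM in WT and 232 and 391 CPM in Ctcf-cKO spermatocyte-like cells, 5.2 times the next class, and 11.8 to 26.6 CPM in elongating spermatid-like cells. 1700102P08RIK, protein-coding on chromosome 9, had 245 and 165 CPM in WT and 379 and 171 CPM in Ctcf-cKO. The noncoding 1700029M20RIK had 311 and 215 CPM in WT and 221 and 342 CPM in Ctcf-cKO. In these 3 members the spermatocyte-like values of all mice lay above all round and elongating spermatid-like values. In somatic clusters they had 0 to 36.6, 0 to 79.7 and 9.83 to 65.4 CPM. The fourth by this ratio (4.27), 1700018G05RIK, overlapped between classes: it had 13.2 and 8.27 CPM in WT and 84.2 and 269 CPM in Ctcf-cKO spermatocyte-like cells, against 0 to 20.9 CPM in round and 6.43 to 31.0 CPM in elongating spermatid-like cells, and it was highest in the unnamed cluster with Sertoli cell markers.

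Protein-coding and noncoding members were found at every stage. Of 89 protein-coding members 13, 43 and 33 peaked in spermatocyte-like, round and elongating spermatid-like cells, and of 55 long intergenic noncoding RNAs 13, 22 and 20 did, and the difference between these shares was not tested. The median over members of the mean CPM in the whole library was 196 for protein-coding members, 43.0 for long intergenic noncoding RNAs and 61.1 for antisense RNAs.

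The members' share of all counts showed where they weigh most. It was 2.21% and 3.01% in WT and 2.58% and 2.505% in Ctcf-cKO spermatocyte-like cells, where the genotypes overlapped. It was 4.42% and 4.47% in WT and 3.74% and 3.79% in Ctcf-cKO round spermatid-like cells, and 5.06% and 4.72% in WT and 4.10% and 4.24% in Ctcf-cKO elongating spermatid-like cells. In these 2 classes both Ctcf-cKO mice lay below both WT mice. Markers of other cells moved with this: in elongating spermatid-like cells the Leydig cell markers summed to 51.4 and 47.3 CPM in WT and 971 and 603 CPM in Ctcf-cKO, the Sertoli cell markers to 33.4 and 82.7 against 987 and 789 CPM, and 4 red blood cell markers to 2.57 and 0 against 1999 and 957 CPM. In round spermatid-like cells the Leydig cell markers summed to 189 and 145 against 1110 and 458 CPM. Their part in the members' share was not tested. Both Ctcf-cKO mice also lay below both WT mice in the somatic clusters taken as background, with 2.55% and 3.34% in WT and 2.52% and 2.51% in Ctcf-cKO. There the WT values rest on 13 and 17 cells. Both Ctcf-cKO mice were below both WT mice in the whole library too, with 4.07% and 4.12% in WT and 3.30% and 3.16% in Ctcf-cKO. In the free RNA they were as well, with 4.34% and 4.24% in WT and 3.46% and 3.34% in Ctcf-cKO. With 2 mice against 2, the smallest p an exact two-sided permutation test allows is 0.333, and no test was made of this sum over the members.

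**Figure D2:**
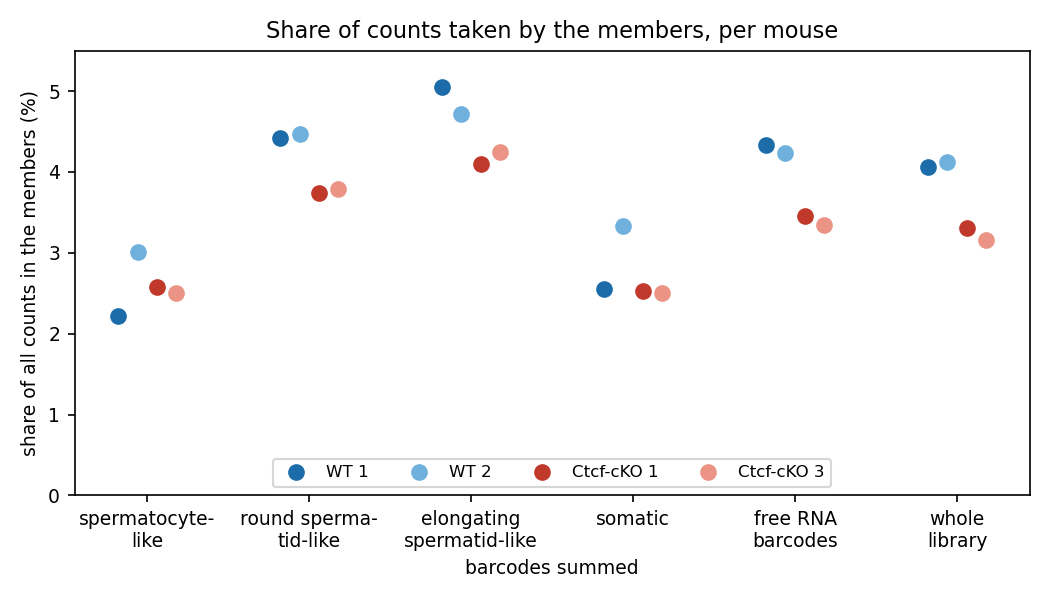
Share of all counts (%) taken by the 215 members in each group of barcodes (x axis), with 1 point per mouse. Both Ctcf-cKO mice lie below both WT mice in round and elongating spermatid-like cells, the somatic clusters, free RNA and the whole library, and the genotypes overlap in spermatocyte-like cells.

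The first comparison of genotypes summed every barcode of a library, so it used all counts and no clusters, and all 215 members passed its filter on low counts. In these sums, fewer cells of a type and less RNA per cell cannot be told apart. Of the 215 members, 68 were lower in Ctcf-cKO (edgeR, adjusted p under 0.05), beside 10.1% of the 14552 genes tested, and 3 were higher, beside 18.4% of them. Among the 5610 rows that met the same limit of 400 counts, 20.9% were lower and 10.5% higher. The median log2 fold change of the members was -0.50, against -0.29 over the rows of at least 400 counts and -0.04 over all genes tested. Both Ctcf-cKO mice lay below both WT mice in 149 members, where 35.8% of all genes tested did so, and above both in 19, where 32.3% did. Among the 180 other testis clones 61 were lower and 0 higher. The count rests on few mice: 18 members were lower without Ctcf-cKO replicate 1, 17 with Ctcf-cKO replicate 3 left out and 89 without WT replicate 2, beside 2.08%, 2.25% and 13.1% of all genes tested in these fits.

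The fall was divided by stage. Of the 93 members of the round spermatid peak 44 were lower and 0 higher, with a median log2 fold change of -0.78, and of the 41 members of the spermatocyte peak 21 were lower and 2 higher, with a median of -0.71. Of the 81 members of the elongating spermatid peak, 3 were lower and 1 was higher, with a median of -0.05. Among all rows of at least 400 counts, 31.5% of the round spermatid peak, 20.7% of the spermatocyte peak and 1.81% of the elongating spermatid peak were lower, so the elongating spermatid peak had the smallest share there too. Higher were 2.44%, 16.7% and 9.83% of these rows, and their medians were -0.56, -0.27 and 0.12. Stage and whole-library level come from the same libraries, so this is a description and the difference between the stages was not tested.

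Summed over members, the levels show the split in each mouse. Members of the round spermatid peak together held 15221 and 12407 CPM in WT and 8269 and 7963 CPM in Ctcf-cKO, and those of the spermatocyte peak held 6079 and 5841 CPM in WT and 3394 and 3595 CPM in Ctcf-cKO. Members of the elongating spermatid peak held 19381 and 22951 CPM in WT and 21354 and 20067 CPM in Ctcf-cKO, with overlapping genotypes. Markers of the first 2 stages were lower in both Ctcf-cKO mice as well, while those of elongating spermatids were higher, unlike the members of that peak: the 18 round spermatid markers summed to 7002 and 6851 CPM in WT and 4128 and 4157 CPM in Ctcf-cKO, the 18 spermatocyte markers to 1286 and 1232 against 679 and 701 CPM, and the 17 elongating spermatid markers to 82590 and 115900 against 116700 and 119600 CPM. The 10 Leydig cell markers went from 327 and 158 CPM in WT to 2828 and 2671 CPM in Ctcf-cKO, and the 12 Sertoli cell markers, of which FSHR was at 0 in 3 libraries, from 146 and 271 to 2294 and 2355 CPM. The part of these shifts in cell makeup in the members' result was not tested.

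**Figure D3:**
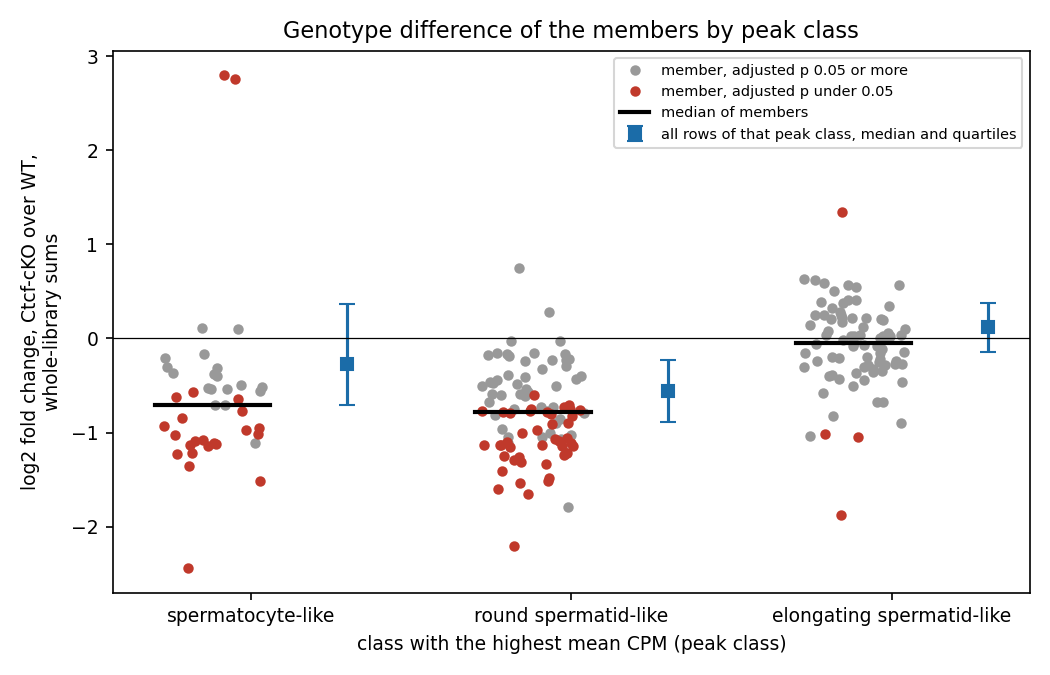
Log2 fold change of each member between Ctcf-cKO and WT in whole-library sums (y axis) by peak class (x axis), with members at an adjusted p under 0.05 in red, the members' median as a black line, and the median with quartiles of all rows of that peak class as a blue square with bars. Members of the spermatocyte and round spermatid peaks center near -0.71 and -0.78, those of the elongating spermatid peak near -0.05.

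The largest falls reached a log2 fold change of -2.44. 1700001J11RIK, annotated as a transcribed processed pseudogene on chromosome 9 at 40050365 to 40053028, had 102 and 51.4 CPM in WT and 10.6 and 16.9 CPM in Ctcf-cKO (log2 fold change -2.44, SE 0.396, adjusted p 0.00098), and reads of a parent gene may have been split with it. 1700048O14RIK went from 42.2 and 28.8 CPM to 8.67 and 5.65 CPM (-2.20, SE 0.425, adjusted p 0.00285), from 23 and 9 counts in Ctcf-cKO. 1700017L05RIK, a long intergenic noncoding RNA on chromosome 5, went from 88.8 and 174 CPM to 22.2 and 48.3 CPM (-1.88, SE 0.396, adjusted p 0.0047). Of these, 1700017L05RIK is 1 of only 3 members of the elongating spermatid peak that were lower.

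Next in size came a long intergenic noncoding RNA on chromosome 5, then 1700019G24RIK, antisense to Dync1i1, and 1700029J07RIK, with log2 fold changes of -1.65, -1.60 and -1.53. In 1700029J07RIK, which had the largest ratio of peak to next class, the values were 131 and 46.1 CPM in WT and 28.7 and 29.5 CPM in Ctcf-cKO. Its adjusted p of 0.0157 became 0.222 without WT replicate 1, and it was 0.121 and 0.0974 when Ctcf-cKO replicate 1 or 3 was left out. The RNA ranked before 1700019G24RIK also lost its call without any of these 3 mice (adjusted p 0.0625 to 0.0990), and 1700017L05RIK without Ctcf-cKO replicate 1 (0.0866). In all 68 members that fell, both Ctcf-cKO mice lay below both WT mice, and the log2 fold changes ran from -2.44 to -0.56 with a median of -1.09.

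Most of the abundant members did not pass the test. Of the 12 with the largest totals, 1 passed the test: 1700123L14RIK, a gene without introns on chromosome 6 that RefSeq calls a transcribed pseudogene, with 997 and 934 CPM in WT and 584 and 547 CPM in Ctcf-cKO (log2 fold change -0.70, SE 0.166, adjusted p 0.00846, but 0.127 and 0.172 without Ctcf-cKO replicate 1 or 3). It was also the single member of the 12 without an elongating spermatid peak. The other 11 lay between -0.35 and 0.25, among them 1700003F12RIK with 1082 and 1283 CPM in WT and 1307 and 1295 CPM in Ctcf-cKO (0.20, SE 0.170, adjusted p 0.408).

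Members with an established name fell into both patterns. Ms4a19 (1700025F22RIK), of the round spermatid peak, had 236 and 197 CPM in WT and 86.0 and 112 CPM in Ctcf-cKO (-1.07, SE 0.218, adjusted p 0.00388). Its neighbour Ms4a20 (1700017D01RIK), 8788 bases away on chromosome 19 and of the elongating spermatid peak, had 200 and 207 CPM in WT and 156 and 145 CPM in Ctcf-cKO (-0.37, SE 0.197, adjusted p 0.185). Acsbg3 (1700061G19RIK), of the round spermatid peak, had 128 and 93.2 CPM in WT and 49.8 and 48.9 CPM in Ctcf-cKO (-1.10, SE 0.252, adjusted p 0.00748). Both Ctcf-cKO mice lay below both WT mice in these 3 members. Without Ctcf-cKO replicate 1 the adjusted p was 0.102 for 1700025F22RIK and 0.0804 for 1700061G19RIK, which also lost its call (0.0737) when replicate 3 was the one left out. H2bl1, with 470 and 626 CPM in WT and 461 and 427 CPM in Ctcf-cKO, did not pass the test (-0.24, SE 0.198, adjusted p 0.389).

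**Figure D4:**
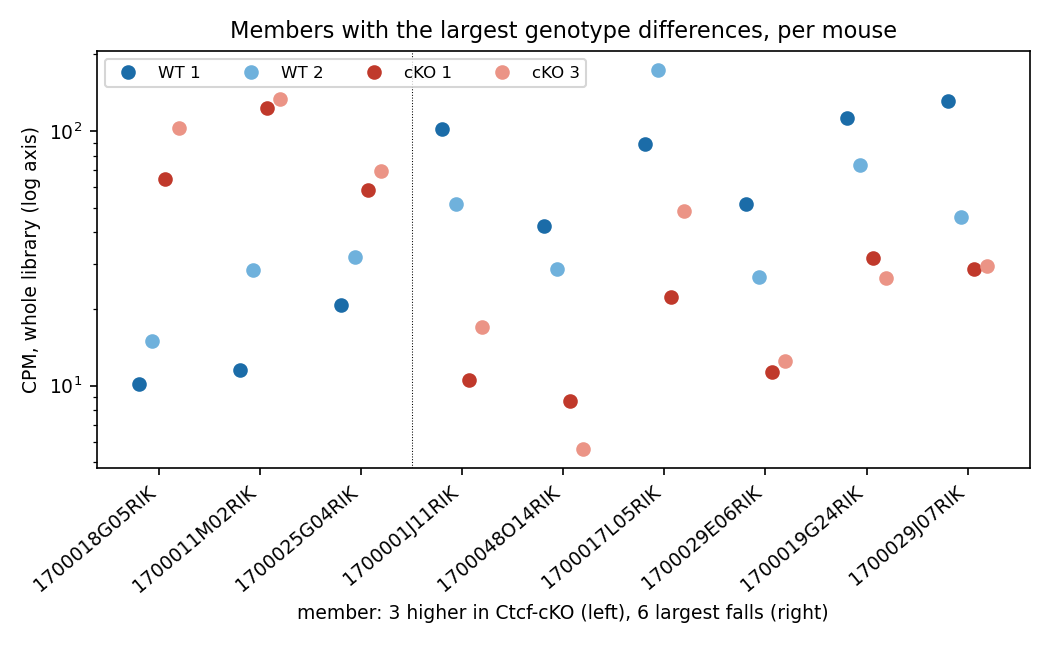
Whole-library CPM on a log axis (y) of the 3 members higher in Ctcf-cKO and the 6 with the largest falls (x), with 1 point per mouse. The WT and Ctcf-cKO points do not overlap in any of these 9 members, which were chosen by this comparison.

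In Ctcf-cKO 3 members were higher (1.40%, beside 18.4% of all genes tested). With at least 10 counts required in every library 6 were (2.80%, beside 19.5%). 1700018G05RIK had 10.1 and 15.0 CPM in WT and 64.8 and 103 CPM in Ctcf-cKO (log2 fold change 2.79, SE 0.353, adjusted p 0.000158). 1700011M02RIK had 11.5 and 28.4 CPM in WT and 123 and 134 CPM in Ctcf-cKO (2.76, SE 0.377, adjusted p 0.000284). These 2 lie next to each other on the plus strand of chromosome X, at 102928372 to 102929094 and 102908905 to 102909651, 18721 bases apart, each with 3 exons and each called protein-coding by GENCODE and a long noncoding RNA by RefSeq. They stayed past the threshold in every alternative tried on the whole library, with log2 fold changes from 2.42 to 3.09 and from 2.18 to 3.54 when 1 mouse was left out. The other 5 of the 7 members on chromosome X did not pass the test.

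Within classes of cells the pair was low in WT and seen in most sums of Ctcf-cKO. In the somatic clusters, with 13 and 17 WT cells, 1700011M02RIK had no count in either WT mouse and 1700018G05RIK none either. The unnamed cluster led by DEFB36 and with 4 of 12 Sertoli cell markers held 38.5 and 152 CPM of 1700011M02RIK in WT and 374 and 501 CPM in Ctcf-cKO. There 1700018G05RIK had 71.5 and 0 CPM in WT and 255 and 398 CPM in Ctcf-cKO. This cluster was the highest of all clusters for both genes by the mean over mice, and it held 43 cells of each Ctcf-cKO mouse beside 15 and 36 of the WT mice. Both genes were also higher in the free RNA of Ctcf-cKO. Sertoli cell markers thus moved with the pair, and their part in the result was not tested.

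**Figure D5:**
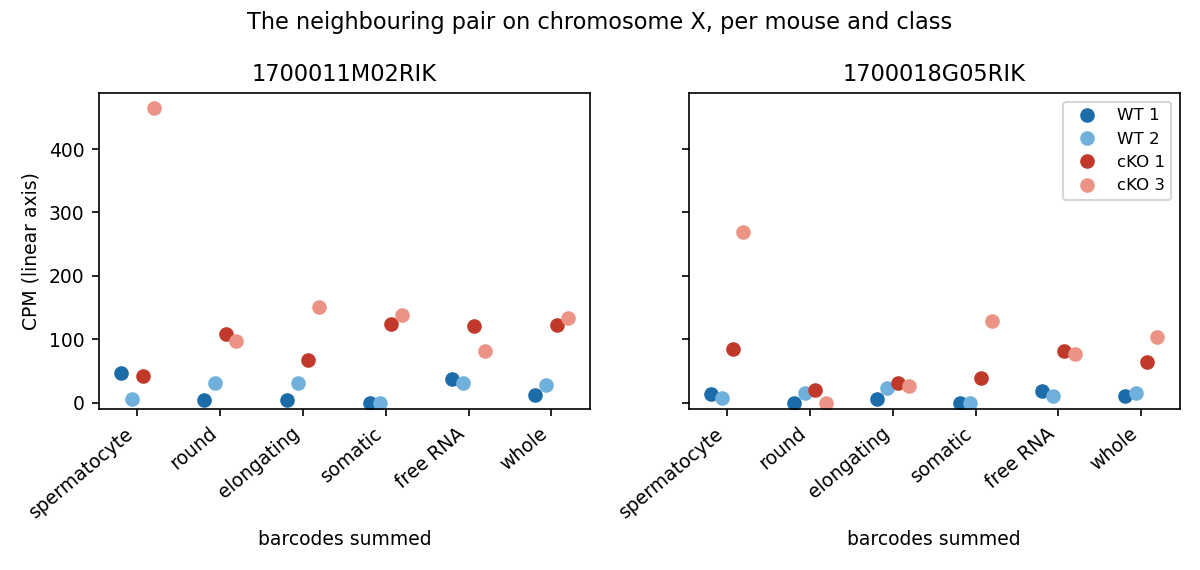
CPM (y axis, linear) of the neighbouring members 1700011M02RIK (left) and 1700018G05RIK (right) in each group of barcodes (x axis), with 1 point per mouse. Whole-library values are 11.5 and 28.4 CPM in WT against 123 and 134 CPM in Ctcf-cKO for the first, and 10.1 and 15.0 against 64.8 and 103 CPM for the second.

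The third, 1700025G04RIK, a protein-coding gene on chromosome 1, had 20.7 and 31.9 CPM in WT and 58.4 and 69.7 CPM in Ctcf-cKO (1.34, SE 0.321, adjusted p 0.00927). Leaving out a Ctcf-cKO mouse moved its adjusted p to 0.0527 or 0.0889. It too was highest in the unnamed cluster with Sertoli cell markers, at 33.0 and 67.4 CPM in WT and 100 and 219 CPM in Ctcf-cKO.

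In free RNA barcodes 212 members passed the filter on low counts. Of these, 2 were higher in Ctcf-cKO, beside 5.84% of 7879 genes tested, and 3 were lower, beside 0.584%. The 2 that rose were the pair on chromosome X: 1700018G05RIK with 19.1 and 10.2 CPM in WT and 81.4 and 77.5 CPM in Ctcf-cKO (2.93, SE 0.66, adjusted p 0.00665), and 1700011M02RIK with 38.1 and 30.5 against 121 and 81.5 CPM (1.88, SE 0.52, adjusted p 0.0285). The WT values of the first rest on 2 and 6 counts. Those that fell were 1700017L05RIK, 1700013D24RIK and 1700113H08RIK, with log2 fold changes of -1.76, -1.61 and -1.301. Without regard to the test, 101 members lay below both WT mice in both Ctcf-cKO mice, beside 32% of all genes tested, and 15 above, beside 22.1%. The median log2 fold change of the members was -0.22, against 0.07 over all genes tested. These medians were -0.30 and 0.07 without WT replicate 1 and -0.06 and 0.52 without WT replicate 2. They were -0.24 and 0.07 without Ctcf-cKO replicate 1 and -0.17 and 0.08 with Ctcf-cKO replicate 3 left out. How many members passed the test moved with the mouse left out, and the calls did not hold without either Ctcf-cKO mouse.

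Within spermatocyte-like cells 86 members could be tested and none passed, beside 0.252% of 3169 genes called higher and 0% lower. The median log2 fold change of the members was 0.04, against -0.13 over all genes tested, and 40 of 86 were below 0. These medians were -0.70 and -0.56 without Ctcf-cKO replicate 1 and 0.05 and -0.15 with Ctcf-cKO replicate 3 left out. They were -0.24 and -0.05 without WT replicate 1 and 0.27 and -0.09 without WT replicate 2. At an unadjusted p under 0.05 were 5 members (5.81%), beside 8.14% of all genes tested. Markers differed within this class as well: the spermatocyte markers summed to 4943 and 3352 CPM in WT and 2631 and 1613 CPM in Ctcf-cKO, the Leydig cell markers to 159 and 132 against 2210 and 1857 CPM, and the Sertoli cell markers to 178 and 128 against 1232 and 2126 CPM. Their part in the members' values was not tested. 1700018G05RIK rested on 2 and 4 counts in WT and 8 and 11 counts in Ctcf-cKO (log2 fold change 3.90, SE 1.11, adjusted p 0.279). 1700001J11RIK had 344 and 103 CPM in WT and 10.5 and 0 CPM in Ctcf-cKO, from 52, 50, 1 and 0 counts (-4.79, SE 1.304, adjusted p 0.249). These 2 were named because their mice did not overlap, and their cells are part of the whole-library sums. Of the 86 members 20 had both Ctcf-cKO mice below both WT mice, beside 24.1% of all genes tested, and 11 had them above, beside 18.5%. The median SE of the members was 0.728 on the log2 scale, the largest of the 5 comparisons.

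Within round spermatid-like cells 212 members could be tested and none passed, nor did any of the 6341 genes tested (0% in each direction). At an unadjusted p under 0.05 were 9 members (4.245%), beside 3.45% of all genes tested. With 1 mouse left out a group holds a single mouse, so for those fits the medians below are given instead of this count. The median log2 fold change of the members was -0.38, against -0.06 over all genes tested, and 164 of 212 were below 0, with a median SE of 0.627. Without Ctcf-cKO replicate 1 these medians were -0.69 and -0.40, and without WT replicate 1 they were -0.47 and 0.01. They were -0.38 and -0.01 without WT replicate 2 and -0.40 and -0.09 with Ctcf-cKO replicate 3 left out. With free RNA subtracted the median turned to 0.14, and 66 of 146 members that could then be tested were below 0, beside a median of 0.25 over all 4317 rows tested. This step set the free share from Leydig and red blood cell markers, at 73.5% and 95.2% in WT and 51.2% and 18.8% in Ctcf-cKO. Red blood cell markers summed to 0 and 14.8 CPM in WT and 546 and 247 CPM in Ctcf-cKO in this class. The part of this choice of markers in the change of sign was not tested. The step was uneven, leaving 231956 of 634616 and 274038 of 1828834 counts in the WT mice in this class. In the Ctcf-cKO mice it left 236302 of 430710 and 97046 of 113497 counts. Both Ctcf-cKO mice lay below both WT mice in 51 members, beside 14.2% of all genes tested, and above both in 10, beside 17.8%. 1700003O11RIK had 37.8 and 26.8 CPM in WT and 4.64 and 0 CPM in Ctcf-cKO (-3.21, SE 1.32, adjusted p 0.999), and 1700011M02RIK had 4.73 and 31.2 CPM in WT and 109 and 96.9 CPM in Ctcf-cKO (2.24, SE 0.873, adjusted p 0.999). For the 93 members that peak in these cells the median was -0.31, against -0.78 in the whole library, and for the 81 of the elongating spermatid peak it was -0.64. The medians of all rows of these peaks with at least 400 counts were -0.04 and -0.46. Ctcf-cKO replicate 3 entered this class with 8 cells and 113497 counts.

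Within elongating spermatid-like cells 139 members could be tested and none passed. At an unadjusted p under 0.05 were 20 members (14.4%), 18 of them lower, beside 15.2% of all genes tested. Of the 2578 genes tested 2.48% were higher and 0.31% lower. The median over members was -0.27, against -0.0031 over all genes tested, and 97 of 139 lay below 0. The members' median moved to -0.29 without WT replicate 1, -0.51 without WT replicate 2, -0.44 without Ctcf-cKO replicate 1 and -0.47 with Ctcf-cKO replicate 3 left out. With free RNA subtracted it was -0.26, with 59 of 84 below 0, while the median over all 1529 genes tested went to -0.15. The free share set from Leydig and red blood cell markers was 21.0% and 28.2% in WT and 91.8% and 41.6% in Ctcf-cKO. That step left 648092 of 777958 and 190592 of 253810 counts in the WT mice in this class. In the Ctcf-cKO mice 63775 of 193622 and 77067 of 112855 counts were left. In 49 members both Ctcf-cKO mice were below both WT mice, beside 20.8% of all genes tested, and in 14 both were above, beside 25.3%. 1700017L05RIK had 203 and 221 CPM in WT and 5.17 and 88.6 CPM in Ctcf-cKO (-2.45, SE 0.777, adjusted p 0.154). 1700071M16RIK and 1700016A09RIK had log2 fold changes of -2.72 and -2.55 (adjusted p 0.223 and 0.184). A limit of at least 5 times the median count for a cell gave 9 lower members of 144 (6.25%) and 0 higher, beside 3.56% and 12.95% of all genes tested, so the count of 0 in this class depends on which barcodes are taken as cells. DESeq2 called 0 members in each of the 3 classes.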

How the data were processed

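Testes of 2 WT and 2 Ctcf-cKO mice were dissociated and processed on the ddSEQ system with a 3′ library kit. The deposited files hold whole-number counts per gene and barcode, which the authors made by aligning reads to GRCm38. The aligner, the use of strand and the collapsing of molecular identifiers are not given in the sources used here. If reads were not collapsed, PCR copies are counted. The SEs come from the edgeR fit with mice as replicates, so they take in spread between the 2 mice of a group as well as counting error. Members, gene lists and cell type markers were chosen with earlier results of these data known.

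Barcodes with 200 to 7000 genes, at most 10% mitochondrial counts and at least 3 times the median count of all barcodes of the library were taken as cells (Python 3.11.15). The gene and mitochondrial limits alone left 4227, 2075, 327 and 293 of 5603, 6474, 5919 and 6407 barcodes. Seurat 5.3.0 was used with 2000 variable genes without 1700 rows, 15 principal components, a Harmony correction over mice (theta 2, sigma 0.1, own code after the published method) and Louvain clustering at resolution 0.9. A cluster was named after the type with most of its markers higher, at least 5, a limit chosen after seeing the clusters, so names are rebuilt and may differ from the study's. Scrublet (scanpy 1.11.5) marked 2, 8, 2 and 2 doublets, which were kept in and left out as an alternative.

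Counts were summed per mouse and class. All genes passing filterByExpr were tested with edgeR 4.0.16 (TMM, quasi-likelihood F test, two-sided) in R 4.3.3, with Benjamini-Hochberg adjustment over all genes tested and a threshold of 0.05. Fold changes are on edgeR's log2 scale with its prior count, so those of genes at 0 in a mouse depend on that prior. The mice are the replicates, and classes with under 5 cells of any mouse were left out. The script was tested on simulated data. Alternatives were DESeq2 1.42.0, RLE factors, library totals alone, no filter, at least 10 counts in every library, each mouse left out, other cell limits and resolutions, no batch correction, doublets left out and free RNA subtracted. The free RNA share of a class was set from Leydig and red blood cell markers alone. It was their share in the class over their share in the free RNA barcodes, at most 100%. Promoters came from RefSeq (GRCm38.p6), gene models from GENCODE M21, with 202 and 210 members matched.

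Named members were those with the 12 largest totals, per peak class the 4 with the largest ratio of peak to next class and the same peak in at least 3 mice, per comparison up to 6 members past the threshold in each direction (or, with none, up to 3 in each direction whose mice did not overlap), the 2 on each side of the limit of 400, and, chosen after their values were seen, members with an established name or X-box letters.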

Additional observations from a re-analysis of the deposited data

Results flagged for a closer look

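In 12 members the genotype difference had opposite directions in 2 germ cell classes, with both Ctcf-cKO mice above both WT mice in one class and below both in the other. The difference between the classes was not tested, and no single class passed the test for any of them. Among all genes tested in both classes, 6.01% showed this between spermatocyte-like and round spermatid-like cells (6 of 85 members), 7.504% between spermatocyte-like and elongating spermatid-like cells (5 of 66 members) and 2.96% between round and elongating spermatid-like cells (3 of 139 members), so members lay near the background. The log2 fold changes below are given with the earlier class first.

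From spermatocyte-like to round spermatid-like cells they went from -1.16 to 0.44 in 1700001F09RIK, 0.93 to -0.53 in 1700012B07RIK, 1.35 to -1.21 in 1700013D24RIK, 1.74 to -1.64 in 1700016C15RIK, 1.37 to -0.62 in 1700021F07RIK and -1.20 to 0.16 in 1700026J12RIK. From spermatocyte-like to elongating spermatid-like cells they went from -0.73 to 0.53 in 1700008J07RIK, 0.93 to -0.65 in 1700012B07RIK, 0.57 to -0.78 in 1700015F17RIK, 1.74 to -0.54 in 1700016C15RIK and 0.65 to -1.05 in 1700022H01RIK. From round to elongating spermatid-like cells they went from 0.48 to -1.07 in 1700006J14RIK, -0.82 to 0.23 in 1700037C18RIK and -0.67 to 0.38 in 1700095A21RIK.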

How the results depend on the processing

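No paired analysis was possible because the groups share only replicate number 1. Over the whole library, 71 members were called, with 31.6% of members lower and 1.40% higher beside 10.1% and 18.4% of all genes tested. In the alternatives that kept every mouse, 28.8% to 41.9% of members were lower, beside 8.03% to 12.3% of all genes tested. In these, 1.40% to 2.80% were higher, beside 9.91% to 19.5%. With DESeq2, RLE factors, library totals alone, no filter and at least 10 counts in every library 65 to 93 were called, while leaving out 1 mouse gave 19 to 104, with 20 when Ctcf-cKO replicate 1 and 19 when Ctcf-cKO replicate 3 was the one left out, and 7 members were called with all mice and in each of these 4 fits. In free RNA barcodes 5 members were called, with 1 by DESeq2, 10 with library totals alone, 2 with at least 10 counts in every library and 0 to 47 with 1 mouse left out. In spermatocyte-like cells 1 was called with no filter, lower (0.47%, beside 0.034% of all genes tested). In round spermatid-like cells none was called in the alternatives that kept every mouse. With 1 mouse left out the members' median ran from -0.70 to 0.27 in spermatocyte-like and from -0.69 to -0.38 in round spermatid-like cells. In elongating spermatid-like cells 4 were called with no filter, all lower (1.87%, beside 0.29% of all genes tested). At 5 times the median count 9 were called, all lower (6.25%, beside 3.56%), and with doublets left out 1, higher (0.70%, beside 4.46%). A limit of 3 times the mode of the free RNA plateau (chosen after seeing the data) gave 15. Of these, 14 were lower (10.8%, beside 4.54%) and 1 higher (0.77%, beside 10.7%). With 1 mouse left out the members' median in this class ran from -0.51 to -0.29. The cause of these changes was not tested. The peak class was the same for 187 to 214 of 215 members under other cell limits, resolutions, doublets left out and no batch correction, and for 188 to 204 with 1 mouse left out. No batch correction left fewer than 5 cells in a Ctcf-cKO mouse in spermatocyte-like and elongating spermatid-like cells, and the plateau limit in spermatocyte-like cells, so these gave no test. With free RNA subtracted the median log2 fold change of the members in round spermatid-like cells turned from -0.38 to 0.14 (all genes tested: from -0.06 to 0.25), and in elongating spermatid-like cells it went from -0.27 to -0.26 while that of all genes tested went from -0.0031 to -0.15. The share subtracted was set from Leydig and red blood cell markers, and the part of this choice was not tested. In round spermatid-like cells the step left 97046 to 274038 counts per mouse, from 113497 to 1828834 before it. In elongating spermatid-like cells it left 63775 to 648092, from 112855 to 777958. The median SE was 0.728, 0.627 and 0.53 in spermatocyte-like, round and elongating spermatid-like cells, against 0.26 in the whole library.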
